A study of Mus musculus with 8 samples.

Results

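The transcription factor genes Tcf7, Lef1, Bach2, Bcl6, Myb, Satb1 and Foxo1, known for progenitor and memory CD8 T cells, were followed through RNA-seq of sorted CD8+ T cells. The 7 genes were taken by symbol, each from 1 of the 23746 rows of every gene table, and all 7 were among the 9782 genes kept for testing (at least 1 FPKM in at least 2 libraries). FPKM, the number of fragments scaled by transcript length and by library total, allows for transcript length, so its values can be set side by side between genes. The cells were CD8+ T cells of BALB/c mice that bind the AH1 tetramer, which carries a peptide of a murine leukaemia virus envelope protein. They had been sorted live into the subsets that the labels call term diff and stem-like, from mice of genotype Cd69-/- and from wild type mice, with no other allele or agent named. This gave 2 libraries each of Cd69-/- term diff, wild type term diff, Cd69-/- stem-like and wild type stem-like cells. The tumour, the age of the mice, any pooling of mice and the markers of the sort are not stated in the labels. Whether the 2 libraries of a group came from separate mice is not stated either, so the p-values below measure the spread between these libraries, which may be technical.

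These factors hold T cells in a state from which they can still divide and give rise to effector cells. TCF1, the product of Tcf7, and its paralog LEF1 bind DNA through an HMG box, and TCF1 marks the progenitor-like cells that sustain a T cell response in chronic infection and in tumours. BACH2 occupies AP-1 sites and represses effector genes, BCL6 is a repressor whose counterpart is BLIMP-1 (Prdm1), and MYB maintains progenitor-like exhausted cells. SATB1 organises chromatin in developing and resting T cells. FOXO1 is kept out of the nucleus by AKT, and when active it drives genes of survival and lymph node homing.

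Term diff cells had far less Tcf7 than stem-like cells in both genotypes, and less Myb, Bcl6, Bach2 and Lef1, whereas the differences of Satb1 and Foxo1 were smaller and did not pass. By limma with Benjamini-Hochberg adjustment over all genes, 5 of the 7 factors fell and 0 rose in term diff relative to stem-like cells in Cd69-/- mice, where 5.56% of all genes fell and 3.88% rose. The same 5 of 7 fell and 0 rose in wild type mice, where 5.83% of all genes fell and 7.24% rose. Tcf7 reached 1 FPKM in no term diff library, and Lef1 only in Cd69-/- term diff replicate 2 (1.05 FPKM). The stem-like groups therefore brought both into the test. Without the minimum of 1 FPKM, Tcf7 passed in both genotypes and Lef1 in neither. Every term diff library lay below every stem-like library for 7 of 7 factors in Cd69-/- mice and for 6 of 7 in wild type mice, as it did for 32.4% of all genes in Cd69-/- and 21.8% in wild type mice. The median difference over the 7 factors was -1.54 in Cd69-/- and -1.53 in wild type cells, against medians over all genes of -0.03 in Cd69-/- and 0.06 in wild type cells. Differences are on the scale of log2(FPKM + 1), which understates the change of genes near or below 1 FPKM, and are given ± standard error. Rescaling each library to an equal sum of FPKM, of which small RNA made up 55.1% to 84.1%, left 2 of the 7 called in each genotype, Tcf7 and Myb in Cd69-/- and Tcf7 and Bcl6 in wild type. By the width of the deposited intervals, small RNA made up only 0.163% to 0.680% of the fragments. Few fragments therefore weigh heavily in that sum.

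**Figure D1:**
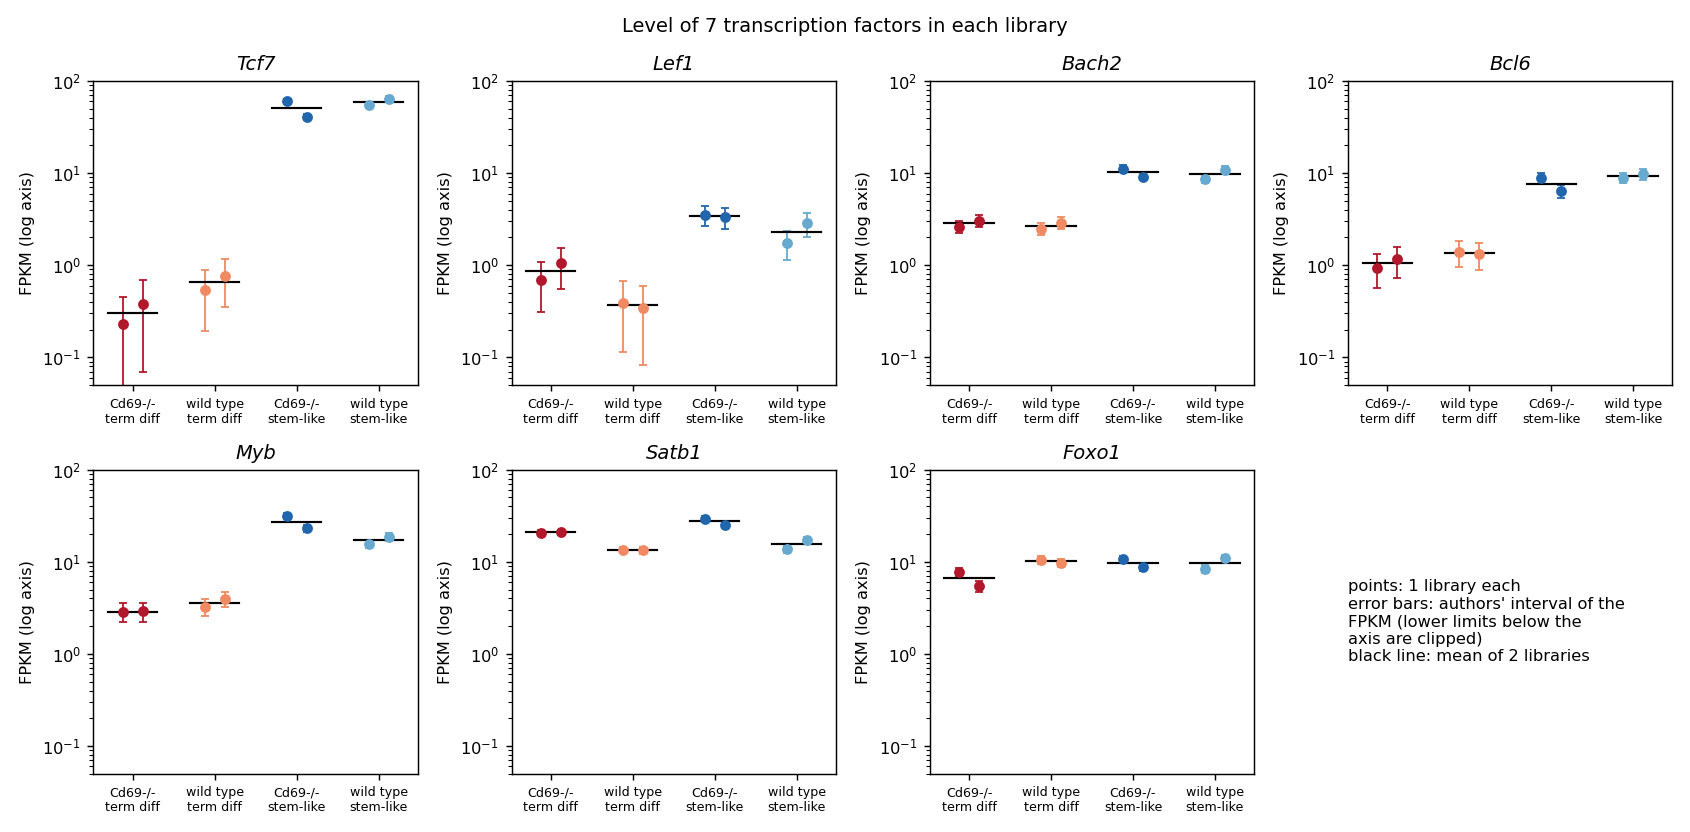
Level of each of the 7 factors in FPKM (log axis) in every library, by group. Points are libraries with the interval the authors deposited, and black lines are means of 2 libraries. Tcf7 lies between 0.228 and 0.755 FPKM in the term diff libraries and between 40.6 and 64.2 FPKM in the stem-like libraries, while Foxo1 covers nearly the same range in 3 of the 4 groups.

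Tcf7 (mm10, chr11:52252604-52282571, minus strand) showed the largest change of the 7. It was at 0.228 and 0.376 FPKM in Cd69-/- term diff cells, against 60.5 and 40.6 FPKM in Cd69-/- stem-like cells. In wild type it was at 0.544 and 0.755 FPKM in term diff cells and at 55.2 and 64.2 FPKM in stem-like cells. Every term diff library lay below every stem-like library by more than an order of magnitude. The mean level in term diff cells was 0.597% of the stem-like mean in Cd69-/- mice and 1.09% in wild type mice. The difference was -5.28 ± 0.19 in Cd69-/- (adjusted p = 2.14e-05) and -5.20 ± 0.19 in wild type (adjusted p = 1.22e-05). Among the 9782 genes, ordered from the lowest difference, Tcf7 ranked 5 in Cd69-/- and 8 in wild type. The width of the deposited intervals implies about 4.0 and 6.0 fragments of Tcf7 in the Cd69-/- term diff libraries and 9.59 and 14.0 in the wild type ones, so the size of the fall is less certain than its direction. The deposited Tcf7 locus ends short of the GENCODE gene, which reaches position 52283014.

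Promoter windows of Tcf7 and Myb are shown because these were the windows of the 7 that held the FOXO motif GTAAACA. They come from RefSeq (GRCm38.p6, the mm10 assembly), run from 250 bases before to 50 bases after the annotated start, and are written 5′ to 3′ on the gene's strand. For each gene the window whose start lay nearest to the 5′ end of the deposited locus was taken. The Tcf7 window is chr11:52282546-52282845 and the Myb window chr10:21160935-21161234, both on the minus strand, and capitals mark the motif.

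Tcf7: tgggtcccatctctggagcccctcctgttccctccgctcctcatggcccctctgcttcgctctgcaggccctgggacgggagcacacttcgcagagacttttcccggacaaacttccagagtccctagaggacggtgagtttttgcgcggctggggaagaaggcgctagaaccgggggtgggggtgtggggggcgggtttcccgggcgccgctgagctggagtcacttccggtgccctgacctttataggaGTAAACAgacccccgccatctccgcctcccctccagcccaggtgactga
Myb: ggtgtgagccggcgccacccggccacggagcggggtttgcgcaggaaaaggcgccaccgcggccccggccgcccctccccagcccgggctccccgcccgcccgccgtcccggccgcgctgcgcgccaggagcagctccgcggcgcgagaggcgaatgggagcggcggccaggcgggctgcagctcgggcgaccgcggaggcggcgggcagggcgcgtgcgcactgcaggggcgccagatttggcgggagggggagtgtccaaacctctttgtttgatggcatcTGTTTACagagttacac

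In Tcf7 the match began at position 2 from the start and read along the gene, and in Myb it began at position 34 and read on the opposite strand. Both strands of the 7 windows were searched, and 2 of 7 held GTAAACA, as did 3.65% of all 32851 RefSeq windows of this length. The TCF/LEF letters CTTTGAT or CTTTGAA (8.65% of all windows), the BACH2 and AP-1 letters TGANTCA (7.81%) and the BCL6 letters TTCNTAGAA (1.07%) were in 0 of the 7. The short MYB letters AACNG were in 7 of 7 and in 80.3% of all windows, and they overlap the FOXO letters in the windows of Tcf7 and Myb. The letters searched were chosen with the sequences in view, and a match describes the sequence only.

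Lef1 (chr3:131110471-131223331, plus strand), the paralog of Tcf7, was much less abundant and fell less. It was at 0.693 and 1.05 FPKM in Cd69-/- term diff cells, against 3.51 and 3.30 FPKM in Cd69-/- stem-like cells. In wild type it was at 0.393 and 0.341 FPKM in term diff cells, against 1.75 and 2.84 FPKM in stem-like cells. The subsets did not overlap in either genotype. The difference was -1.24 ± 0.19 in Cd69-/- (adjusted p = 0.00599) and -1.25 ± 0.19 in wild type (adjusted p = 0.00447). The Cd69-/- call ended without Cd69-/- stem-like replicate 1 (adjusted p = 0.0513). Without the filter on low values Lef1 passed in neither genotype (adjusted p = 0.0602 in Cd69-/- and 0.0516 in wild type). With a pseudocount of 0.1 in place of 1 the difference was -1.88 in Cd69-/- and -2.32 in wild type. Term diff cells kept 25.6% of the stem-like mean in Cd69-/- and 16.0% in wild type.

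Bach2 (chr4:32417435-32586108, plus strand), the repressor at AP-1 sites, stood at 2.62 and 3.06 FPKM in Cd69-/- term diff cells, against 11.2 and 9.14 FPKM in Cd69-/- stem-like cells. It stood at 2.50 and 2.89 FPKM in wild type term diff cells, against 8.61 and 10.9 FPKM in wild type stem-like cells. The 2 genotypes had almost the same levels in each subset. Its difference was -1.54 ± 0.16 in Cd69-/- (adjusted p = 0.000935) and -1.53 ± 0.16 in wild type (adjusted p = 0.000757), with 27.9% of the stem-like mean kept in Cd69-/- and 27.7% in wild type. The row BC024582, at 0.112 to 1.66 FPKM, lies within the Bach2 locus, and how reads were divided between them is not stated. The GENCODE gene of Bach2 starts further upstream, at position 32238804, than the deposited locus.

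Bcl6 (chr16:23965052-23988612, minus strand) was at 0.939 and 1.16 FPKM in Cd69-/- term diff cells, against 8.78 and 6.43 FPKM in Cd69-/- stem-like cells. Wild type term diff cells had 1.40 and 1.32 FPKM, against 8.90 and 9.74 FPKM in wild type stem-like cells. The term diff libraries lay far below the stem-like ones, with 13.8% of the stem-like mean kept in Cd69-/- and 14.6% in wild type. The difference was -2.06 ± 0.16 in Cd69-/- (adjusted p = 0.000267) and -2.13 ± 0.16 in wild type (adjusted p = 0.000164).

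Myb (chr10:21124930-21160984, minus strand) was at 2.88 and 2.90 FPKM in Cd69-/- term diff cells, against 31.2 and 23.0 FPKM in Cd69-/- stem-like cells. Wild type term diff cells had 3.27 and 3.95 FPKM, against 15.6 and 18.6 FPKM in wild type stem-like cells. After Tcf7 this was the largest fall in Cd69-/- cells, -2.84 ± 0.17 (adjusted p = 7.41e-05), and it was -1.97 ± 0.17 in wild type (adjusted p = 0.000312). Term diff cells kept 10.6% of the stem-like mean in Cd69-/- and 21.2% in wild type. The difference between those falls is given with the genotype comparisons.

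Satb1 (chr17:51736187-51833290, minus strand), the chromatin organiser, was at 20.7 and 21.0 FPKM in Cd69-/- term diff cells, against 29.5 and 25.3 FPKM in Cd69-/- stem-like cells. In wild type it was at 13.4 and 13.3 FPKM in term diff cells, against 13.6 and 17.4 FPKM in stem-like cells. The term diff libraries were lower without overlap in each genotype, but neither difference passed. It was -0.38 ± 0.14 in Cd69-/- (adjusted p = 0.142) and -0.19 ± 0.14 in wild type (adjusted p = 0.414), with 95% intervals of -0.70 to -0.05 and -0.52 to 0.13.

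Foxo1 (chr3:52268337-52350109, plus strand), the regulator held back by AKT, was at 7.81 and 5.43 FPKM in Cd69-/- term diff cells, against 10.7 and 8.82 FPKM in Cd69-/- stem-like cells. In wild type it was at 10.5 and 9.72 FPKM in term diff cells, against 8.37 and 10.9 FPKM in stem-like cells. The subsets overlapped in wild type and not in Cd69-/-. The difference was -0.51 ± 0.19 in Cd69-/- (95% interval -0.94 to -0.08, adjusted p = 0.134) and 0.07 ± 0.19 in wild type (95% interval -0.36 to 0.50, adjusted p = 0.849), so neither passed.

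**Figure D2:**
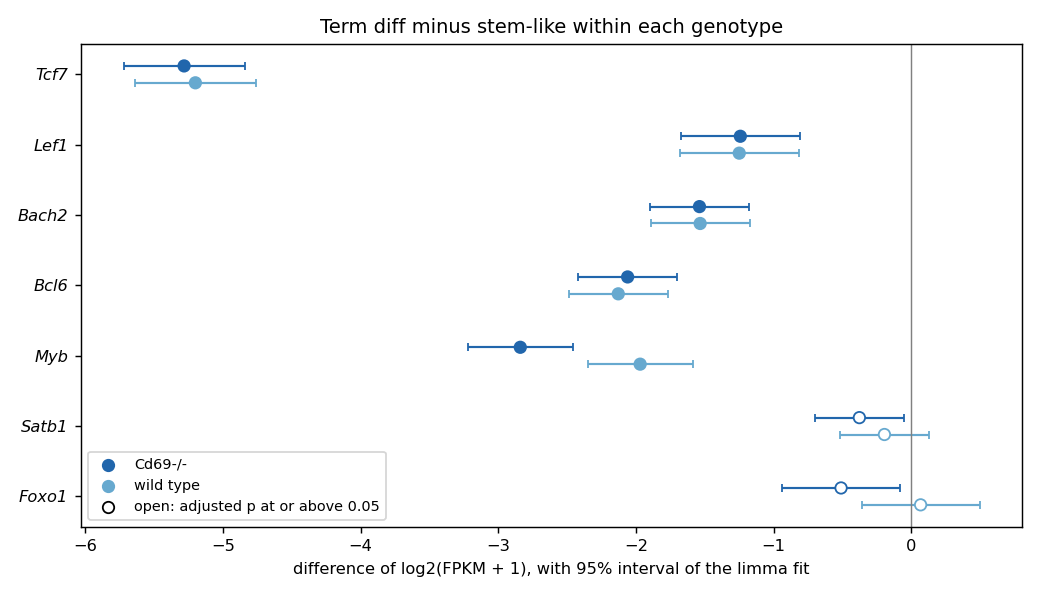
Difference of term diff minus stem-like cells for each factor in log2(FPKM + 1), with the 95% interval of the limma fit, in Cd69-/- and wild type mice. Filled points passed the adjusted threshold. Tcf7 stands apart at -5.28 in Cd69-/- and -5.20 in wild type, and the open points of Satb1 and Foxo1 lie between -0.51 and 0.07.

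The order of the factors by level differed between the subsets. In the 4 term diff libraries Satb1 was the most abundant of the 7 and Foxo1 came next. Tcf7 was the least abundant in both Cd69-/- term diff libraries and Lef1 in both wild type ones. In the 4 stem-like libraries Tcf7 was the most abundant and Lef1 the least. Myb and Satb1 followed Tcf7 there and changed places between the 2 Cd69-/- stem-like libraries, so their order was not separated, nor was that of Bach2, Bcl6 and Foxo1 in wild type stem-like cells. The 7 factors summed to 34.9 and 35.9 FPKM in Cd69-/- term diff cells and to 117 and 155 FPKM in Cd69-/- stem-like cells. In wild type they summed to 32.0 and 32.3 FPKM in term diff cells and to 112 and 135 FPKM in stem-like cells. Tcf7 made up 0.634% to 2.34% of that sum in the term diff libraries and 34.8% to 49.3% in the stem-like libraries.

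Other cell types could carry some of these factors, so their markers were read beside them. The 8 B cell markers summed to 0.241 to 0.887 FPKM in term diff and 0.314 to 1.22 FPKM in stem-like libraries, with Cd79a at 0.207 FPKM or less and Pax5 at 0.230 FPKM or less in every library, and 0 of the 8 reached the level for testing. The 6 markers of CD4 and regulatory T cells moved with the factors (3 of 5 tested fell in each genotype, 0 rose in Cd69-/- and 1 in wild type), summing to 12 to 13.3 FPKM in Cd69-/- term diff and 25.9 to 28.3 FPKM in Cd69-/- stem-like cells. In wild type they summed to 14.8 to 15.9 FPKM in term diff and 30.6 to 31.0 FPKM in stem-like cells. Il2ra and Ikzf2, which activated CD8 T cells also express, made up most of those sums. Cd4 itself was at 1.38 to 4.01 FPKM in term diff and 2.53 to 5.52 FPKM in stem-like libraries, and Foxp3 at 0.211 to 0.291 FPKM in term diff and 0.423 to 1.14 FPKM in stem-like libraries. The part of these cells in the results was not tested. The labelled cell type was present throughout, with the 8 CD8 T cell markers at 970 to 1443 FPKM in term diff and 974 to 1180 FPKM in stem-like libraries. The 8 myeloid markers with a row summed to 20.1 to 32.0 FPKM in term diff and 6.73 to 8.68 FPKM in stem-like libraries, mostly from Fcer1g in term diff cells, with Csf1r at 0.418 FPKM or less. Of 3 tested, Fcer1g rose in each genotype and 0 fell. Cd68 and Lyz2 did not pass, at -0.47 and -0.93 in Cd69-/- and -0.74 and -0.36 in wild type. The 5 NK cell markers summed to 138 to 236 FPKM in term diff and 106 to 123 FPKM in stem-like libraries, mostly from Nkg7, which effector CD8 T cells also express, with Ncr1 at 0.375 FPKM or less. Of 3 NK markers tested, 2 rose in Cd69-/-, among them Nkg7 (0.90, adjusted p = 0.0141), and Eomes fell (-1.28, adjusted p = 0.0168). In wild type 0 rose and 0 fell. The 7 tumour and stroma markers summed to 178 to 183 FPKM in Cd69-/- term diff and 101 to 106 FPKM in Cd69-/- stem-like cells. In wild type they summed to 109 to 124 FPKM in term diff and 55.2 to 66.7 FPKM in stem-like cells. Most came from Vim, with Epcam at 0.715 and Col1a1 at 0.445 FPKM or less. Vim rose in each genotype, whereas Pecam1 fell in Cd69-/- (-1.345, adjusted p = 0.000865) and in wild type (-0.89, adjusted p = 0.00434). Beside these marker calls, 3.88% of all genes rose and 5.56% fell in Cd69-/-, and 7.24% rose and 5.83% fell in wild type. In bulk samples fewer cells of a type and less RNA per cell cannot be told apart.

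Genes with the most similar profile to each factor were sought among genes whose mean reached 5 FPKM in some group, by the root mean square difference of the centred log2 values over the 8 libraries. Nearest to Tcf7 were Dapl1 (0.63) and the lymph node homing receptor Ccr7 (0.72), although neither was close on this scale. Dapl1 averaged 0.832 FPKM in Cd69-/- term diff and 28.9 FPKM in Cd69-/- stem-like cells, and 0.899 FPKM in wild type term diff and 40.7 FPKM in wild type stem-like cells. The nearest profiles to Bach2 were Marcksl1 (0.07) and Irf2bp2 (0.11), and those to Lef1 were the Ras GTPase-activating protein Rasa3 (0.15) and Filip1l (0.16). Bcl6 and Myb shared the actin-binding protein Synpo, at 0.22 from Bcl6 and 0.23 from Myb, beside Tbc1d4 (0.17) for Bcl6 and Emb (0.19) for Myb. Satb1 lay nearest to Nfe2l2 and Fam189b (both 0.15), and Foxo1 to Agap3 (0.08) and Aebp2 (0.08).

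Of 11 tested genes of the TCF/LEF and Wnt list, 0 rose and 2 fell in Cd69-/- cells (median -0.21, against -0.03 over all genes), and 2 rose and 1 fell in wild type (median -0.04, against 0.06). Of all genes, 3.88% rose and 5.56% fell in Cd69-/-, and 7.24% rose and 5.83% fell in wild type. Tle3, a Groucho-type corepressor that binds TCF proteins, fell in both, at 15.2 and 12.2 FPKM in Cd69-/- term diff against 37.3 and 31.3 FPKM in Cd69-/- stem-like cells. In wild type it was at 10.3 and 13.7 FPKM in term diff and 25.7 and 32.0 FPKM in stem-like cells. The differences were -1.26 ± 0.18 (adjusted p = 0.00483) in Cd69-/- and -1.21 ± 0.18 (adjusted p = 0.00461) in wild type. Its relatives went the other way in wild type, with Tle4 at 0.52 (adjusted p = 0.0359) and Aes at 0.59 (adjusted p = 0.019). In Cd69-/- cells they were at 0.50 (adjusted p = 0.0508) and 0.35 (adjusted p = 0.13), and Aes was at -0.02 there after equal-sum rescaling. Bcl9, a coactivator of beta-catenin, fell in Cd69-/- (-1.0, adjusted p = 0.00898) and was at -0.52 in wild type (adjusted p = 0.0832). The wild type calls of Tle4 ended without any 1 of 6 libraries (adjusted p = 0.0527 to 0.155), and those of Aes without wild type stem-like replicate 1 or either wild type term diff library (adjusted p = 0.0709 to 0.103). The Bcl9 call ended without Cd69-/- stem-like replicate 1 or Cd69-/- term diff replicate 2 (adjusted p = 0.0791 and 0.0681).

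Although Foxo1 did not pass, several of its textbook targets fell in term diff cells. Of 12 tested FOXO1 target genes 1 rose and 6 fell in Cd69-/- (median -0.87), and 1 rose and 4 fell in wild type (median -0.31). Of all genes, 3.88% rose and 5.56% fell in Cd69-/- (median -0.03), and 7.24% rose and 5.83% fell in wild type (median 0.06). Ccr7 fell by 3.98 in Cd69-/- (adjusted p = 4.21e-05) and by 3.74 in wild type (adjusted p = 2.66e-05). The interleukin-7 receptor chain Il7r fell by 2.04 in Cd69-/- (adjusted p = 0.000716) and by 2.64 in wild type (adjusted p = 0.000147). Bcl2l11, the pro-apoptotic protein BIM, rose by 0.77 in Cd69-/- (adjusted p = 0.0236) and by 1.22 in wild type (adjusted p = 0.00263). Its Cd69-/- call ended without either Cd69-/- stem-like library or Cd69-/- term diff replicate 1 (adjusted p = 0.0842 to 0.121). In the list of FOXO relatives and the kinase pathway above them, 0 of 12 rose and 2 fell in Cd69-/- (median -0.26), and 0 rose and 3 fell in wild type (median 0.04). Pik3ip1, an inhibitor of PI3 kinase, fell by 1.10 in Cd69-/- (adjusted p = 0.0233) and by 1.13 in wild type (adjusted p = 0.0168). Pik3ip1 ended without any 1 of 3 libraries in each genotype (adjusted p = 0.0746 to 0.147 in Cd69-/-, 0.0513 to 0.0878 in wild type).

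Counterparts of BCL6 and BACH2 moved in both directions. Of 16 partners and opponents of BACH2 and BCL6, 1 rose and 2 fell in Cd69-/- (median 0.00), and 3 rose and 2 fell in wild type (median 0.18). Of all genes, 3.88% rose and 5.56% fell in Cd69-/- (median -0.03), and 7.24% rose and 5.83% fell in wild type (median 0.06). Prdm1, which encodes BLIMP-1, was at 8.11 and 6.81 FPKM in Cd69-/- term diff, against 2.45 and 2.10 FPKM in Cd69-/- stem-like cells. Wild type term diff cells had 6.03 and 8.08 FPKM, against 1.22 and 1.43 FPKM in wild type stem-like cells. It rose by 1.37 ± 0.16 in Cd69-/- (adjusted p = 0.00191) and by 1.78 ± 0.16 in wild type (adjusted p = 0.000448), opposite to Bcl6. The AP-1 gene Jun fell by 1.19 (adjusted p = 0.0026) in Cd69-/- and by 1.06 (adjusted p = 0.00349) in wild type. Batf, an AP-1 partner of IRF4, fell in wild type (-1.45, adjusted p = 0.00498) and was at -0.28 in Cd69-/- (adjusted p = 0.484). The AP-1 gene Fosl2 passed in wild type (0.83, adjusted p = 0.0472), was at 0.34 in Cd69-/- (adjusted p = 0.397; -0.02 after equal-sum rescaling), and lost its call without any 1 of 6 libraries (adjusted p = 0.06 to 0.187). Of 7 tested relatives and partners of MYB and SATB1, 0 passed in either genotype (median -0.09 in Cd69-/- and 0.10 in wild type).

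Among 18 other regulators of quiescent and progenitor T cells, 0 rose and 5 fell in Cd69-/- (median -0.33), and 0 rose and 3 fell in wild type (median -0.04). Of all genes, 3.88% rose and 5.56% fell in Cd69-/- (median -0.03), and 7.24% rose and 5.83% fell in wild type (median 0.06). The E protein Tcf12 fell in both, by 0.98 (adjusted p = 0.00301) in Cd69-/- and 0.95 (adjusted p = 0.00278) in wild type. Klf2, a regulator of trafficking, fell in Cd69-/- (-1.39, adjusted p = 0.0134) and was at -0.24 in wild type (adjusted p = 0.594). Eomes fell in Cd69-/- (-1.28, adjusted p = 0.0168) and was at -0.76 in wild type (adjusted p = 0.0887). Id3, an inhibitor of E proteins, fell in wild type (-1.12, adjusted p = 0.0105) from low levels and was at -0.34 in Cd69-/- (adjusted p = 0.354). It reached 1 FPKM only in wild type stem-like cells (1.24 and 1.42 FPKM), so that group alone brought it into the test. Without the filter on low values the wild type fall of Id3 did not pass (adjusted p = 0.0636). Klf2 lost its call without either Cd69-/- term diff library (adjusted p = 0.0811 and 0.0715), Eomes without any Cd69-/- library (adjusted p = 0.0645 to 0.109), and Id3 without wild type stem-like replicate 2 or term diff replicate 1 (adjusted p = 0.0516 and 0.0594). For the genes that passed in 1 genotype and not in the other (Aes, Tle4, Bcl9, Batf, Fosl2, Klf2, Eomes, Id3 and Irf4), the interaction of genotype and subset did not pass (adjusted p = 0.539 to 0.975). The sort markers are not named, so surface markers may have been used to separate the subsets. Of 12 progenitor surface and secreted markers 0 rose and 8 fell in each genotype, with medians of -1.74 in Cd69-/- and -1.92 in wild type. Slamf6, a surface marker of TCF1-positive cells, fell by 4.16 (adjusted p = 3.7e-05) in Cd69-/- and 3.66 (adjusted p = 2.42e-05) in wild type. Of 12 effector regulators 4 rose and 2 fell in Cd69-/- (median 0.04), and 5 rose and 1 fell in wild type (median 0.58). Id2, an inhibitor of E proteins in effector cells, rose by 1.80 (adjusted p = 0.000758) in Cd69-/- and 1.54 (adjusted p = 0.00109) in wild type. Irf4 fell in Cd69-/- (-0.80, adjusted p = 0.0168) and was at -0.39 in wild type (adjusted p = 0.146), and its call ended without any 1 of 3 Cd69-/- libraries (adjusted p = 0.0799 to 0.103).

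**Figure D3:**
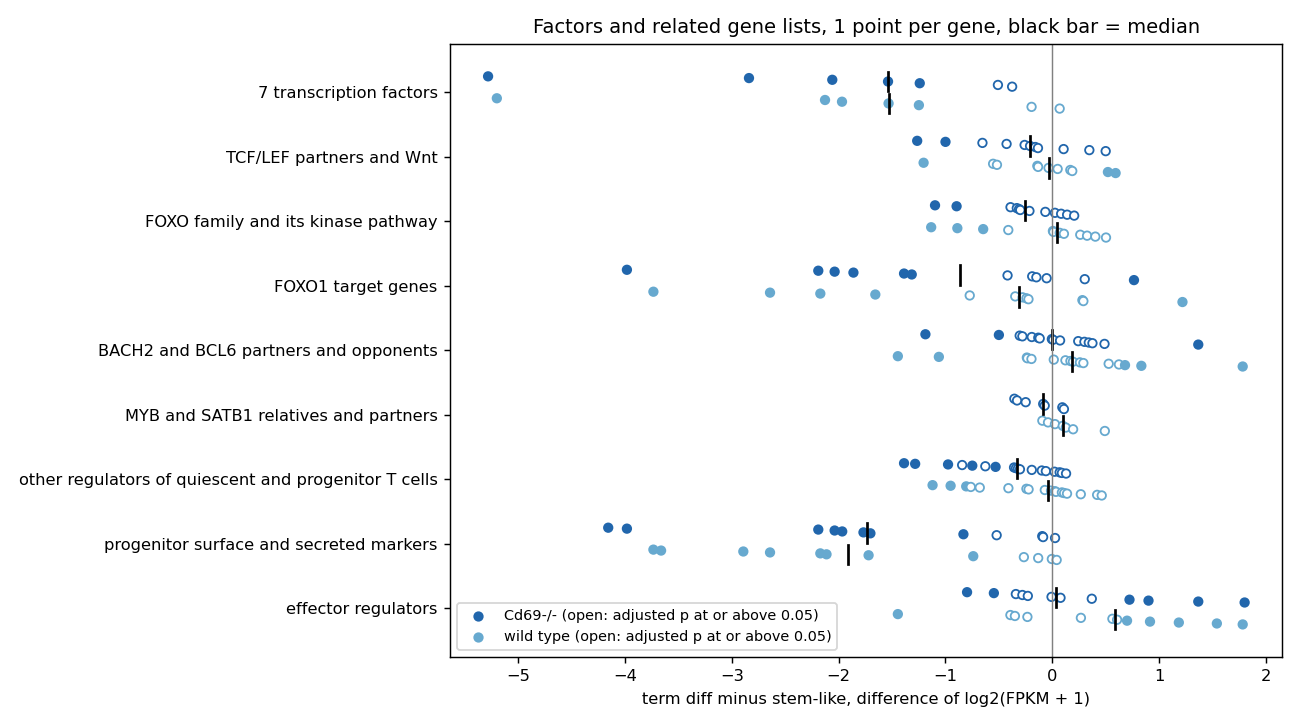
Difference of term diff minus stem-like cells in log2(FPKM + 1) for the 7 factors and for each related list, 1 point per gene, in Cd69-/- and wild type mice. Filled points passed the adjusted threshold and black bars are medians. The medians of the 7 factors (-1.54 in Cd69-/- and -1.53 in wild type) and of the progenitor markers (-1.74 in Cd69-/- and -1.92 in wild type) lie left of the other lists.

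The genotype comparison asks whether the loss of Cd69, an early activation receptor that opposes egress from tissue, goes with other levels of these factors. The labels held in the libraries, with Cd69 at 2.21 to 3.69 FPKM in Cd69-/- and 10.4 to 23.4 FPKM in wild type cells. By limma 0 of 7 factors passed within term diff cells, where 0.194% of all genes were called, and 0 of 7 within stem-like cells, where 0.153% were. Those shares are 19 genes in term diff and 15 in stem-like cells, and with 1 library left out they were 3 to 21 in term diff and 4 to 16 in stem-like cells. With robust empirical Bayes estimation 1 of 7, Satb1, passed in stem-like cells (adjusted p = 0.0331). At an unadjusted p under 0.05 there were 3 of 7 in each subset, Lef1, Satb1 and Foxo1 in term diff and Lef1, Myb and Satb1 in stem-like cells, beside 1481 of all genes in term diff and 710 in stem-like cells. The genotypes did not overlap for 6 factors in term diff cells, with Cd69-/- lower in 4 and higher in 2, where 28.1% of all genes were lower and 19.7% higher in this way. In stem-like cells they did not overlap for 4 factors, with Cd69-/- lower in 1 and higher in 3, where 11.5% of all genes were lower and 26.3% higher.

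Satb1 was higher in Cd69-/- than in wild type cells, with all Cd69-/- libraries above all wild type libraries. Within a subset, 19.7% of all genes in term diff and 26.3% in stem-like cells were higher without overlap. The share separated over both subsets together was not counted. The genotype difference of Satb1 was the largest of the 7 on the log2(FPKM + 1) scale in both subsets, but not as a ratio of means in term diff cells, where the Cd69-/- mean was 156% of wild type for Satb1, 237% for Lef1 and 46.5% for Tcf7. Cd69-/- cells had 20.7 and 21.0 FPKM in term diff and 29.5 and 25.3 FPKM in stem-like cells, against 13.4 and 13.3 FPKM in term diff and 13.6 and 17.4 FPKM in stem-like cells of wild type mice. The difference was 0.61 ± 0.14 in term diff (adjusted p = 0.167) and 0.79 ± 0.14 in stem-like cells (adjusted p = 0.146). Averaged over the subsets it was 0.70 ± 0.10 (adjusted p = 0.026), and Satb1 was the 1 factor of 7 to pass in that comparison, in which 0.266% of all genes rose. This call ended without any 1 of 7 libraries, the exception being wild type stem-like replicate 2 (adjusted p = 0.0635 to 0.114). It also ended with the replicate block (adjusted p = 0.0575), and the difference was -0.07 after rescaling each library to an equal sum of FPKM, small RNA included.

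The estimated genotype differences of Myb and Foxo1 were larger in 1 subset than in the other, but neither interaction passed. Myb was lower in Cd69-/- than in wild type in term diff cells (-0.24 ± 0.17, adjusted p = 0.507) and higher in stem-like cells (0.63 ± 0.17, adjusted p = 0.408), with no overlap of libraries in either. Foxo1 was at -0.56 ± 0.19 in term diff (adjusted p = 0.261) and 0.02 ± 0.19 in stem-like cells (adjusted p = 0.993). The test of the difference itself gave an interaction of -0.87 ± 0.24 for Myb (adjusted p = 0.539) and -0.58 ± 0.26 for Foxo1 (adjusted p = 0.55). By limma 0 of 7 factors passed the interaction, beside 0.0307% of all genes called. At an unadjusted p under 0.05 there was 1 of 7, Myb, beside 889 of all 9782 genes.

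Lef1 was higher in Cd69-/- cells of both subsets without overlap, by 0.45 ± 0.19 in term diff (adjusted p = 0.319) and 0.44 ± 0.19 in stem-like cells (adjusted p = 0.676). The average of 0.44 ± 0.13 did not pass (adjusted p = 0.251). For Tcf7 the difference was -0.34 in term diff (95% interval -0.78 to 0.10) and -0.26 in stem-like cells (95% interval -0.70 to 0.18). Bcl6 was at -0.21 (95% interval -0.57 to 0.15) and -0.27 (95% interval -0.63 to 0.09), with Cd69-/- libraries lower in both subsets. Bach2 was at 0.06 in each subset, with 95% intervals of -0.30 to 0.41 in term diff and -0.30 to 0.42 in stem-like cells. Of the related lists, Ccr6, a chemokine receptor, fell in Cd69-/- stem-like cells (2.95 and 2.83 FPKM, against 6.59 and 6.97 FPKM in wild type, adjusted p = 0.0417), and Il7r passed on average over subsets (0.82 ± 0.14, adjusted p = 0.0484). Both calls were lost in nearly every fit that left out 1 library (adjusted p = 0.0578 to 0.346 for Ccr6 without each of the 8, and 0.0766 to 0.179 for Il7r without each of 7).

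**Figure D4:**
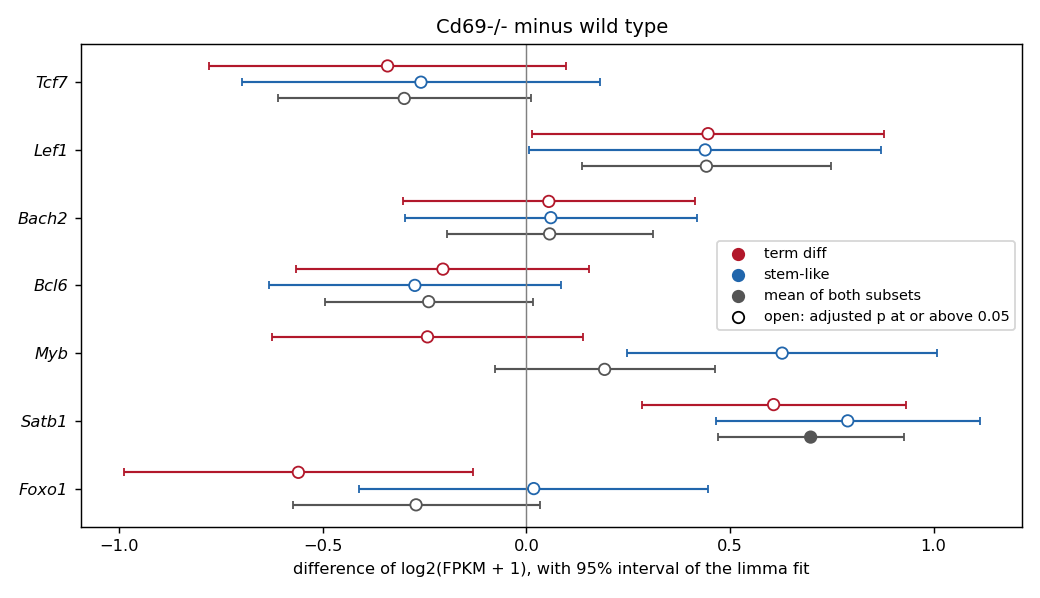
Difference of Cd69-/- minus wild type for each factor in log2(FPKM + 1), with the 95% interval of the limma fit, in term diff cells, in stem-like cells and as their mean. The filled point is the mean for Satb1 at 0.70, and Myb has points on both sides of 0, at -0.24 in term diff and 0.63 in stem-like cells.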

How the data were processed

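Libraries were made from total RNA of sorted cells with a stranded SMARTer Pico Input kit and read as single ends of 76 cycles, per the labels' protocols. The FPKM values, 1 gene table per library, are those the authors deposited. Cufflinks 2.2.1, TopHat 1.3.2, Bowtie2 2.3.4, bcl2fastq 2.20 and the build mm10 appear in the submitters' processing notes. The gene models, how strand was handled and the total behind the scaling are not given in the sources used here. The tables sum to 282589 to 919280 FPKM per library, and the widths of the deposited intervals imply 2055411 to 2591061 fragments over all genes, a rough measure of depth. Of 23746 rows, 3 genes whose status was not OK in some library were left out. Loci in the files count their start from 0 and are given here from 1.

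The 9782 genes that reached 1 FPKM in 2 libraries or more were tested as log2(FPKM + 1) with limma 3.58.1 (R 4.3.3), using 4 group means, a trended prior and Benjamini-Hochberg adjustment over all genes, with a threshold of 0.05. Tested were term diff against stem-like cells in each genotype, Cd69-/- against wild type in each subset and on average, and the interaction. All 20 alternatives are described under the dependence on processing. The members and the gene lists were chosen with earlier results of these data known. Beside the members, the text names the 2 nearest profiles of each, from each list up to 2 genes with the largest called rise and 2 with the largest called fall in either subset comparison, and any list gene past it between genotypes. Some genes that this rule would name are not reported here.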

Additional observations from a re-analysis of the deposited data

Results flagged for a closer look

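Myb showed opposite genotype differences in the 2 subsets, with all libraries separated in each. It was at 2.88 and 2.90 FPKM in Cd69-/- term diff cells against 3.27 and 3.95 FPKM in wild type term diff cells, and at 31.2 and 23.0 FPKM in Cd69-/- stem-like cells against 15.6 and 18.6 FPKM in wild type stem-like cells. The deposited intervals in term diff cells overlap, reaching up to 3.57 FPKM in Cd69-/- and down to 2.59 FPKM in wild type. Without overlap of libraries, 28.1% of all genes were lower in Cd69-/- term diff cells and 26.3% higher in Cd69-/- stem-like cells. The share of genes with both was not counted. The limma test of the difference gave an interaction of -0.87 on the log2 scale, which did not pass after adjustment over all genes (adjusted p = 0.539, and 0.354 to 0.942 over its alternatives).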

How the results depend on the processing

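The falls of Tcf7 in both genotypes, of Myb in Cd69-/- and of Bcl6 in wild type passed in all 20 alternatives, between 0.00189 and 0.0408 at the highest adjusted p. When 1 library was left out, 4 to 5 factors passed in Cd69-/- and 5 in wild type. Scaling to an equal sum of FPKM moved the median of all genes by -0.27 (Cd69-/-) and 0.13 (wild type) in the subset comparisons and by -0.84 (term diff), -0.45 (stem-like) and -0.65 (average) in the genotype comparisons. Under it 2 factors passed in Cd69-/-, 2 in wild type and 0 on average between genotypes, and Bach2 was at -0.76 (term diff) and -0.44 (stem-like), Foxo1 at -0.48 (stem-like), Satb1 at -0.41 (term diff) and -0.067 (average), Aes at -0.015 and Fosl2 at -0.019 (both Cd69-/- subsets). Between genotypes in stem-like cells 1 factor passed with robust empirical Bayes estimation. On average between genotypes 0 passed without the filter on low values, with an equal sum without small RNA, with the replicate block and without both wild type replicate 2 libraries, and 0 to 1 when 1 library was left out. Leaving out both of those libraries was chosen after seeing the data, because small RNA made up 62.5% and 55.1% of their FPKM and 77.2% to 84.1% elsewhere. Of the implied fragments, small RNA was 0.322% to 0.680% elsewhere and 0.398% and 0.163% in those 2 libraries. Without them Lef1 did not pass in wild type (adjusted p = 0.0803) and Klf2 was at 0.022 there. Lef1 also missed the threshold without the filter (adjusted p = 0.0602 in Cd69-/- and 0.0516 in wild type), and a minimum of 5 FPKM gave it no value. Signs near 0 turned for Foxo1 between subsets in wild type (-0.012 with quantile normalization, -0.11 to 0.30 when libraries were left out). Between genotypes in stem-like cells they turned for Foxo1 (-0.023 with median-of-ratios scaling, -0.059 with quantile normalization, -0.007 with an equal sum without small RNA, -0.16 to 0.19 when 1 library was left out), Bach2 (-0.014 with quantile normalization, -0.092 to 0.21 when 1 library was left out) and Tcf7 (-0.54 to 0.024 when 1 library was left out). In term diff cells they turned for Bach2 (-0.034 with an equal sum without small RNA, -0.027 to 0.14 when 1 library was left out). The cause was not tested. Over all genes 924 passed in Cd69-/- and 1278 in wild type. With an equal sum 71 passed in Cd69-/- and 153 in wild type, without the filter 501 in Cd69-/- and 638 in wild type, and with 1 library left out 289 to 888 in Cd69-/- and 608 to 1099 in wild type. Wild type had 756 with its own groups alone in the fit and 325 without both replicate 2 libraries. In Cd69-/- 380 rose and 544 fell, against 265 and 633 with an equal sum without small RNA. In wild type 708 rose and 570 fell, and the balance turned to 660 and 712 with median-of-ratios scaling, 652 and 717 with quantile normalization and 276 and 332 without stem-like replicate 1. Over the alternatives the counts between genotypes were 3 to 122 in term diff cells, 4 to 53 in stem-like cells and 17 to 134 on average, and 2 to 105 for the interaction (3 as reported). Same-numbered libraries correlated at -0.30 to 0.15 in their deviations from group means, and whether they share a mouse or a day is not stated, so the block was not used in the reported values. The replicate block gave 746 calls in Cd69-/- and 1070 in wild type, and between genotypes 6 in term diff cells (19 without it), 8 in stem-like cells (15) and 40 on average (53). With about 4.0 to 14.0 fragments of Tcf7 in term diff libraries, depth limits the size of its fall, which was -6.98 in Cd69-/- and -6.33 in wild type with a pseudocount of 0.1 and -3.37 and -3.51 with 5.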

Other observations

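The 2 libraries of each stem-like group were in the same order for all the factors. In Cd69-/- stem-like cells replicate 1 was higher for 7 of 7, with a median of replicate 2 minus replicate 1 of -0.27 on the log2 scale, against 0.01 over all genes, of which 52.8% were higher in replicate 2. In wild type stem-like cells replicate 2 was higher for 7 of 7, with a median of 0.30 against 0.08 over all genes, of which 63.2% were higher in replicate 2. In term diff cells replicate 2 was higher for 6 of 7 in Cd69-/-, as for 29.8% of all genes, and for 3 of 7 in wild type, as for 58.3% of all genes.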
